A study of Mus musculus with 27 samples.

Results

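The loaded caPI3Kalpha left ventricle and the unloaded wild-type (WT) left ventricle were compared by their microRNAs (miRNAs). The caPI3Kalpha mice carry a constitutively active form of PI3Kalpha, a lipid kinase that acts downstream of insulin and IGF1 receptors. TAC, transverse aortic constriction, is an operation that narrows the aorta and loads the left ventricle with pressure, and a sham operation leaves the aorta open. The members are the 8 small-RNA libraries that the labels give as caPI3Kalpha TAC (4 hearts, animals 8, 9, 11 and 211) and WT sham (4 hearts, animals 6, 7, 13 and 15), out of 16 miRNA libraries and 27 libraries in all. All are adult mice of the FVB strain, and their ventricles were taken 7 days after the operation. The labels name no sex and no promoter for the transgene, and each number is read here as 1 heart, so p-values measure the spread between these samples. The comparison gives how far the miRNAs of a pressure-loaded ventricle with active PI3Kalpha depart from those of the normal one. It changes genotype and load together, so the main results stand beside the 5 WT TAC and the 3 caPI3Kalpha sham libraries, which change one of them alone.

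The table holds raw read counts for 421 mature miRNAs, with 3114229 to 6205989 counts a library in WT sham and 4682160 to 7676588 in caPI3Kalpha TAC. Levels below are CPM, counts scaled to a common library total after TMM scaling, which corrects that total for composition, and differences are log2 changes with their standard error from edgeR's quasi-likelihood fit of all 16 libraries. A miRNA was called when its Benjamini-Hochberg adjusted p over the 262 tested miRNAs was under 0.05. The columns fall into 2 library sets by their name, with a space before the animal number (WT sham 13 and 15, caPI3Kalpha TAC 8 and 9) or without one (WT sham 6 and 7, caPI3Kalpha TAC 11 and 211). The sets stand apart in some miRNAs: let-7a was at 3092, 2778, 5510.3 and 4592 CPM in WT sham hearts 6, 7, 13 and 15 and at 4157, 4239, 2214 and 2271 in caPI3Kalpha TAC hearts 8, 9, 11 and 211. WT sham and caPI3Kalpha TAC each hold 2 libraries of each set, and values within each set are given beside the main results. The other groups are not balanced. WT TAC 17, 19 and 20 and caPI3Kalpha sham 14 have a space, and WT TAC 1 and 2 and caPI3Kalpha sham 5 and 8 have none. Pik3ca mRNA, the gene of the transgene's catalytic subunit, was listed at 110.5 and 101.3 RPKM in caPI3Kalpha TAC hearts 11 and 211 and at 5.3 to 8.5 RPKM in the 4 WT sham hearts, and hearts 8 and 9 had no mRNA library here. miR-133a, a marker of heart and skeletal muscle, was abundant in all 8 libraries, at 78822 to 99198 CPM in WT sham and 51833 to 69206 in caPI3Kalpha TAC. The other muscle miRNAs, given below, were scarcer.

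A miRNA is cut from a hairpin transcript and loaded into an Argonaute protein, where its seed, bases 2 to 8, pairs with sites in messenger RNAs and lowers their translation or stability. miRNAs with the same seed can therefore act on overlapping sets of messages, even when they come from different chromosomes. In heart muscle several abundant miRNAs lie in introns of myosin heavy chain genes, and pressure overload is known for a switch among these myosins, for fibroblast activation and for inflammation.

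The sequences below show which of the changed miRNAs share a seed with miRNAs that did not pass the test. They are the RefSeq mature forms on GRCm38.p6, read 5′ to 3′, with the seed in capitals; 21 of the 31 called miRNAs had an entry in the table used. Of the myosin-intron miRNAs, miR-208b and miR-208a-3p share a seed and differ at 3 positions, and miR-499 has a seed of its own. miR-208b lies at chr14:54975710-54975731 (minus strand) within the Myh7 gene, miR-208a-3p at chr14:54949072-54949093 (minus strand) within Myh6, and miR-499 at chr2:155622893-155622913 (plus strand) within Myh7b.
miR-208b: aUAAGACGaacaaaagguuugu
miR-208a-3p: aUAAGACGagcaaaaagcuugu
miR-499: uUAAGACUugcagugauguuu
miR-146a at chr11:43374435-43374456 (minus strand) and miR-146b at chr19:46342790-46342811 (plus strand) share their seed and differ at 2 positions near the 3′ end.
miR-146a: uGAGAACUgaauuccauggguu
miR-146b: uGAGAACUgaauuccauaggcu
miR-20a at chr14:115044183-115044205 (plus strand) shares its seed with miR-17 of the same cluster at chr14:115043684-115043706 (plus strand), and with miR-93 and miR-106b within Mcm7 on chromosome 5.
miR-20a: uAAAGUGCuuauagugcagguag
miR-17: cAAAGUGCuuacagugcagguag
miR-93: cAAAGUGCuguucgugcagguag
miR-106b: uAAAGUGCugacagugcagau
miR-19b, with copies at chr14:115044358-115044380 (plus strand) and chrX:52741991-52742013 (minus strand), and miR-19a at chr14:115044048-115044070 (plus strand) differ at 1 position outside the seed.
miR-19b: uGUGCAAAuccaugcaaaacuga
miR-19a: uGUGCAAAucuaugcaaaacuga
The miR-30 seed is shown for miR-30c, with copies at chr1:23291714-23291736 (plus strand) and chr4:120769584-120769606 (minus strand), for miR-30e at chr4:120772660-120772681 (minus strand) and for miR-30a at chr1:23272274-23272295 (plus strand).
miR-30c: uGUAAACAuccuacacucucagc
miR-30e: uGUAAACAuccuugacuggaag
miR-30a: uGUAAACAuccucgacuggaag
miR-107 at chr19:34820700-34820722 (minus strand) within Pank1, and miR-103, with copies within Pank2 at chr2:131288103-131288125 and Pank3 at chr11:35782447-35782469, differ at 1 position near the 3′ end.
miR-107: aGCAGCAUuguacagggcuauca
miR-103: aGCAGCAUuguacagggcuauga
miR-9 has 3 identical copies at chr3:88215613-88215635 (plus strand), chr7:79505279-79505301 (plus strand) and chr13:83738821-83738843 (plus strand), so its reads do not tell which was transcribed. miR-127 lies at chr12:109592888-109592909 (plus strand) within the span of Rtl1, a gene of an imprinted region, and miR-21 at chr11:86584120-86584141 (minus strand) within Vmp1.
miR-9: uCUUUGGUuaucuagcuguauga
miR-127: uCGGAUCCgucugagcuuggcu
miR-21: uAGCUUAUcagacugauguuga
How the authors' mapping divided reads among such near-identical forms is not given in the sources used here, so differences within a seed group carry that uncertainty.

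Of 262 tested miRNAs, 31 differed between loaded caPI3Kalpha and unloaded WT ventricles (11.8%), with 14 higher (5.34%) and 17 lower (6.49%) in caPI3Kalpha TAC. The 4 and 4 CPM values did not overlap for 48 miRNAs (18.3%). Most changes were small: 5 of the 14 that rose and 4 of the 17 that fell moved 2-fold or more, and the median size of the log2 change over all tested miRNAs was 0.38. The balance of directions depended on the scaling, with 30 higher and 10 lower on library totals without TMM and 21 higher and 14 lower in DESeq2. The median log2 change over all tested miRNAs was -0.02 as reported, 0.12 on library totals and 0.05 over the 333 miRNAs DESeq2 tested. None of the 31 changed direction under either scaling. With a term for the library set in the model, 92 miRNAs passed (35.1%), 38 higher (14.5%) and 54 lower (20.6%), among them all 31. This term adds calls in most groups below, so its counts are given beside the reported ones. The plain count rested on single hearts: it was 8 without WT sham 6, 7 without WT sham 7, 9 without caPI3Kalpha TAC 9 and 13 without caPI3Kalpha TAC 11. Of the 31, 6 passed in every one of the 16 fits that left out 1 library: miR-208b, miR-146a, miR-146b and miR-127, which were higher, and miR-9 and miR-20a, which were lower. With the set term in the model, 27 of the 31 passed in all 16 such fits, and the count of 92 fell to 51 without WT sham 7 and to 48 without caPI3Kalpha TAC 9.

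**Figure D1:**
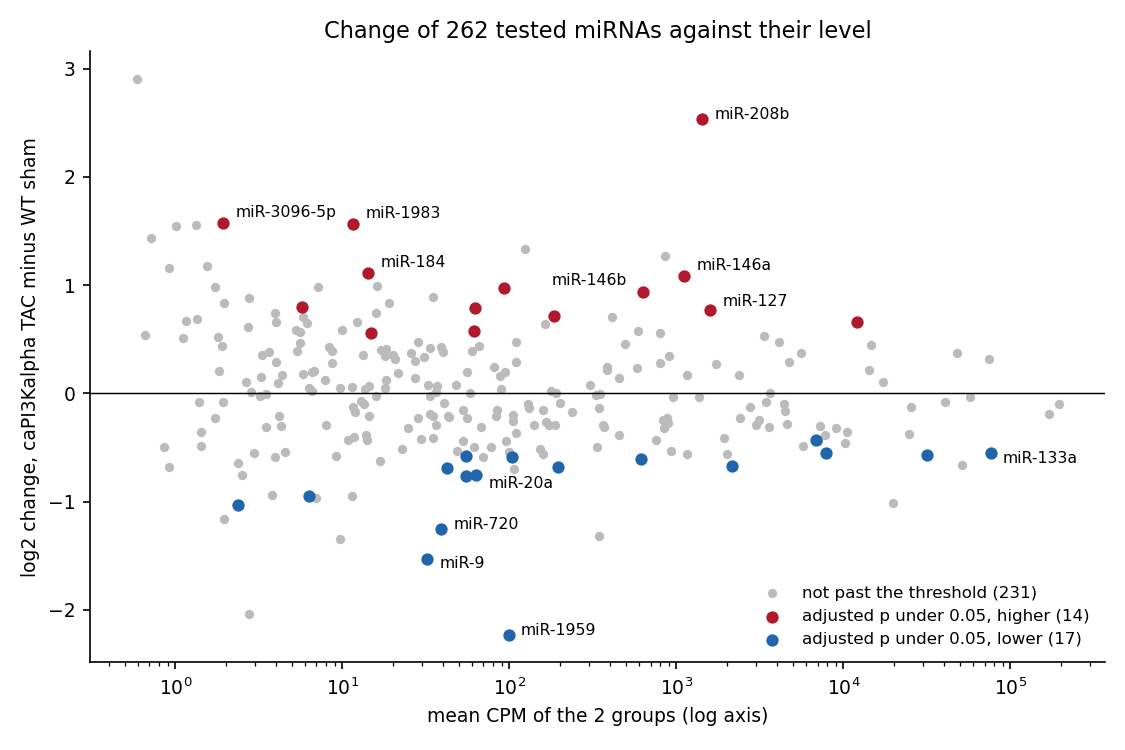
Log2 change (caPI3Kalpha TAC minus WT sham, vertical axis) against the mean CPM of the 2 groups (horizontal, log axis) for the 262 tested miRNAs; red and blue points passed an adjusted p of 0.05 in edgeR and grey points did not. The 31 called miRNAs spread over the whole range of levels, and miR-208b is the abundant miRNA with the largest rise.

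miR-208b, which is transcribed with the slow beta-myosin gene Myh7 and is known to return in the stressed adult heart, showed the largest rise among the called miRNAs. Its level was 523, 459, 373 and 314 CPM in WT sham hearts 6, 7, 13 and 15 and 1222, 1680.3, 2216 and 4557 in caPI3Kalpha TAC hearts 8, 9, 11 and 211. Every loaded caPI3Kalpha heart lay above every unloaded WT heart, and heart 211 was the highest by far. The log2 change was 2.53 ± 0.41 (5.79-fold; edgeR adjusted p = 0.00251), with 2.21 in the set with a space and 2.82 in the set without. WT TAC hearts lay at 886 to 1646 CPM, a log2 change of 1.61 ± 0.38 from WT sham, and caPI3Kalpha sham hearts at 484, 694 and 193. The direct difference from WT TAC was 0.92 ± 0.37 (edgeR adjusted p = 0.109) and passed only with the set term (0.72, adjusted p = 0.0367). Its host mRNA Myh7 was listed at 1040.7, 623.9, 642.7 and 696.1 RPKM in WT sham hearts 6, 7, 13 and 15, and at 831.1 and 1525.8 in caPI3Kalpha TAC hearts 11 and 211. Heart 211, highest in miR-208b, was also highest in Myh7 among these 6 hearts, whereas WT sham 6 had more Myh7 mRNA than heart 11 and less miR-208b. Myh6 was listed at 3856.4, 3264.8, 3296.0 and 3686.3 RPKM in the WT sham hearts and at 2872.2 and 2643.3 in hearts 11 and 211, below all 4. Myh7b was listed at 18.5, 9.6, 12.9 and 13.7 RPKM and at 17.9 and 18.7.

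The miRNA lists used from here on were chosen with earlier results of these data known, so calls within them are no independent result. Of the 7 tested miRNAs on the list of myosin-intron and muscle miRNAs, miR-208b alone rose, miR-133a fell, and 5 did not pass. Over all tested miRNAs 5.34% rose and 6.49% fell. With the set term 1 was higher and 5 lower, beside 14.5% and 20.6% of all. The list's median was -0.53 against -0.02 over all tested miRNAs. miR-133a, which restrains growth of heart muscle cells and is among the most abundant cardiac miRNAs, took 8.27% ± 0.53 (SD, n = 4) of all counts in WT sham and 6.24% ± 0.50 (n = 4) in caPI3Kalpha TAC. Its levels were 92836, 90391, 78822 and 99198 CPM in the WT sham hearts and 59543, 51833, 66477 and 69206 in the caPI3Kalpha TAC hearts, with no overlap. The change was -0.55 ± 0.12 (edgeR adjusted p = 0.00939). The call was lost without WT sham 6, WT sham 7 or caPI3Kalpha TAC 9, with log2 changes of -0.64 to -0.45 over the 16 fits. In WT TAC the change from WT sham was -0.44 ± 0.11, and caPI3Kalpha TAC and WT TAC differed by -0.11 ± 0.11 (edgeR adjusted p = 0.611).

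miR-208a-3p, the miRNA of the fast alpha-myosin gene Myh6, was at 1094, 1262, 867 and 1161 CPM in WT sham and 661, 606, 980.1 and 785 in caPI3Kalpha TAC. Heart 11 reached the lower WT sham values, the change was -0.53 ± 0.18 and it did not pass (edgeR adjusted p = 0.0703; with the set term 0.0073). miR-499, of Myh7b, went from 2714, 2926, 1674 and 2208 CPM to 1356, 1169, 1931 and 2008 (-0.56 ± 0.24, edgeR adjusted p = 0.131; with the set term 0.00171). Thus the 2 miRNAs that share the seed UAAGACG lay on opposite sides of 0, the called one higher and the uncalled one at a negative value. miR-1, another miRNA confined largely to muscle, overlapped between the groups at 9062, 7417, 7826 and 11044 CPM in WT sham and 8719, 7526, 4845 and 5970.3 in caPI3Kalpha TAC (-0.39 ± 0.21, edgeR adjusted p = 0.226; with the set term 0.0349). miR-133b, a relative of miR-133a, was at 57.3, 81.0, 82.5 and 115 CPM in WT sham and 51.5, 38.9, 50.9 and 82.2 in caPI3Kalpha TAC (-0.59 ± 0.26, edgeR adjusted p = 0.138). miR-206, the skeletal-muscle relative of miR-1, had 2 reads in all of WT sham and 0 in caPI3Kalpha TAC.

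**Figure D2:**
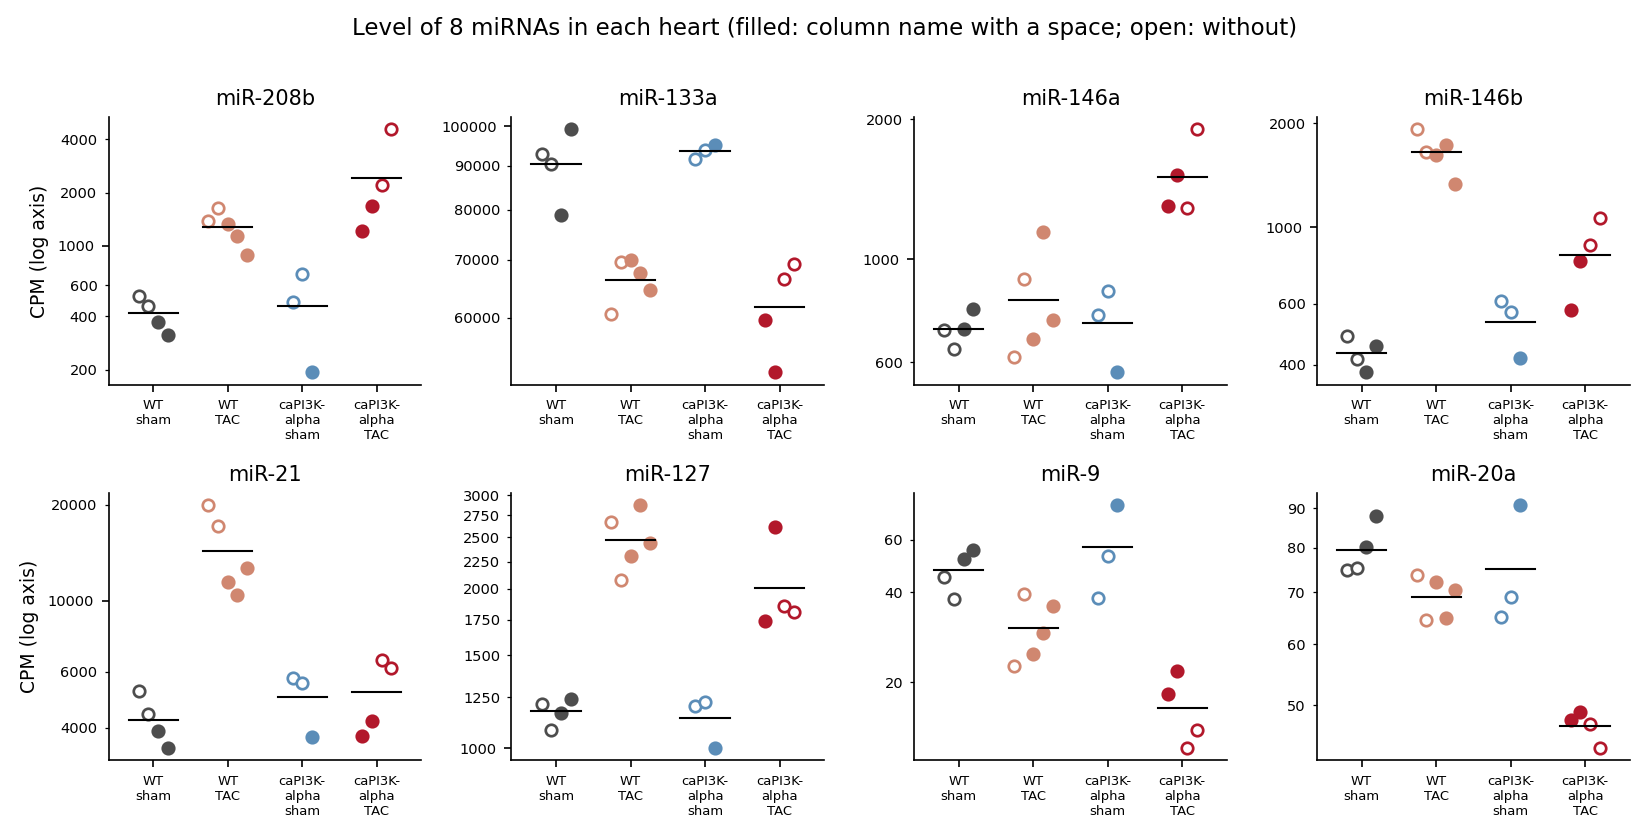
CPM (vertical, log axis) of 8 miRNAs in each of the 16 hearts, grouped by genotype and operation; filled points have a space in their column name, open points do not, and the black bar is the group mean. miR-146a is high in caPI3Kalpha TAC, miR-21 is high in WT TAC, and miR-9 and miR-20a are lowest in caPI3Kalpha TAC.

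Both miR-146 miRNAs rose. They are induced through NF-kappaB and dampen Toll-like receptor signalling. miR-146a was at 704, 641, 706 and 781 CPM in WT sham and 1301, 1516, 1290.0 and 1904 in caPI3Kalpha TAC, so the lowest loaded caPI3Kalpha heart stood far above the highest WT sham heart. The change was 1.09 ± 0.20 (2.12-fold; edgeR adjusted p = 0.00392), 1.06 in the set with a space and 1.29 in the set without. WT TAC hearts were at 614 to 1144 CPM, with a log2 difference of 0.20 ± 0.19 from WT sham, and caPI3Kalpha TAC exceeded WT TAC by 0.88 ± 0.19 (edgeR adjusted p = 0.00927). Its seed-mate miR-146b was at 484, 414, 379.6 and 453 CPM in WT sham and 577, 797, 889 and 1064 in caPI3Kalpha TAC, with heart 8 the lowest of the loaded hearts. The change was 0.94 ± 0.18 (edgeR adjusted p = 0.00496). WT TAC hearts were higher still, at 1335 to 1922 CPM, with a log2 difference of caPI3Kalpha TAC from WT TAC of -0.99 ± 0.18 (edgeR adjusted p = 0.00393). Against the loaded WT heart the 2 seed-mates thus differed in opposite directions, while against the unloaded WT heart both were higher.

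miR-21, the best-known miRNA of the pressure-loaded heart and enriched in fibroblasts, did not pass. It was at 5213, 4406, 3895 and 3447 CPM in WT sham and 3768, 4213, 6527 and 6175 in caPI3Kalpha TAC. The groups overlapped, with hearts 11 and 211 above all WT sham hearts and hearts 8 and 9 among them. The change was 0.29 ± 0.24 (edgeR adjusted p = 0.44; with the set term 0.0513). In WT TAC it lay at 10444 to 19938 CPM, a log2 change of 1.76 ± 0.24 from WT sham, and the log2 difference of caPI3Kalpha TAC from WT TAC was -1.47 ± 0.23 (edgeR adjusted p = 0.00302). No loaded caPI3Kalpha heart reached the lowest WT TAC heart.

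Of 16 listed miRNAs that earlier work found raised by pressure overload, 1 rose (miR-208b, also a muscle list member), none fell, and the median was 0.22. This 1 of 16 is near the 5.34% of all tested miRNAs that rose. With the set term 5 were higher (miR-208b, miR-24, miR-27b, miR-199a-5p and miR-222) and miR-210 was lower, beside 14.5% and 20.6% of all. miR-214, a fibroblast-enriched miRNA, was at 60.3, 48.9, 47.3 and 67.9 CPM in WT sham and 85.9, 81.7, 80.3 and 57.1 in caPI3Kalpha TAC (0.44 ± 0.19, edgeR adjusted p = 0.138), with heart 211 inside the WT sham range. Its log2 difference from WT TAC was -0.68 ± 0.19 (edgeR adjusted p = 0.0276). miR-222, which targets cell-cycle inhibitors, stood at 53.9, 41.6, 62.2 and 50.5 CPM in WT sham and 54.7, 83.9, 63.2 and 70.8 in caPI3Kalpha TAC (0.39 ± 0.16, edgeR adjusted p = 0.11) and passed with the set term (adjusted p = 0.0372).

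Leukocyte markers are given beside miR-146a because white blood cells also express it. Among the 8 tested entries of the leukocyte list, 0 passed in edgeR or DESeq2 and 2 had an unadjusted p under 0.05 in edgeR (miR-142-5p at 0.71 and miR-223 at -0.44). With the set term in edgeR, miR-142-5p was higher (0.71, adjusted p = 0.0047), as were both miR-146 miRNAs, and miR-155 (-0.32, adjusted p = 0.0344) and miR-150 (-0.47, adjusted p = 0.0165) were lower. The summed level of the list was 934 to 1138 CPM in WT sham and 939 to 1228 in caPI3Kalpha TAC, with no member at 0 in either group. miR-223, of neutrophils and macrophages, was at 106, 103, 100.4 and 130.3 CPM in WT sham and 63.5, 69.5, 99.1 and 92.5 in caPI3Kalpha TAC, just clear of overlap, with a log2 difference from WT TAC of -0.83 ± 0.18 (edgeR adjusted p = 0.00959). miR-142-3p, found in blood cells of all white lineages, was at 31.4, 29.2, 45.6 and 29.4 CPM in WT sham and 36.9, 30.9, 41.4 and 23.2 in caPI3Kalpha TAC (-0.03 ± 0.19), and miR-155 of activated lymphocytes and macrophages at 72.1, 72.1, 80.5 and 75.2 in WT sham and 71.1, 56.6, 58.7 and 54.4 in caPI3Kalpha TAC (-0.31 ± 0.15, edgeR adjusted p = 0.172). In such bulk tissue, fewer cells of a type and less RNA per cell cannot be told apart.

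Red blood cell miRNAs varied widely among hearts of 1 group. miR-451 was at 543, 681, 678 and 105 CPM in WT sham and 1531, 1313, 1944 and 52.9 in caPI3Kalpha TAC, with WT sham 15 and caPI3Kalpha TAC 211 far below the other hearts of their groups. The change of 1.27 ± 0.88 did not pass (edgeR adjusted p = 0.336), nor did that of miR-144 from the same transcript (1.33 ± 0.91, adjusted p = 0.334). Against WT TAC 1 of these 2 was called higher in edgeR, with a median difference of 2.77. Both were higher than in WT TAC with the set term (miR-144 by 3.05, edgeR adjusted p = 0.0168, miR-451 by 2.66, adjusted p = 0.0284). The summed level of the pair ran from 115 to 788 CPM in WT sham and from 60.1 to 2284 in caPI3Kalpha TAC. Its part in the other results was not tested. Among caPI3Kalpha TAC hearts, miR-208b and miR-146a were highest in heart 211, where this sum was lowest. miR-208b was next highest in heart 11, where the sum was highest, and miR-184 and miR-34c were highest in that heart.

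The miR-34 family is induced by p53 and holds back proliferation. Of its 4 tested members 1 rose, beside 5.34% of all tested miRNAs, none fell, and the median was 0.82. With the set term 2 were higher, beside 14.5% of all. miR-34c was at 77.1, 55.1, 59.5 and 59.6 CPM in WT sham and 86.7, 113, 176 and 119 in caPI3Kalpha TAC. All loaded hearts exceeded all unloaded ones, heart 8 by the least and heart 11 by the most. The change was 0.98 ± 0.25 (edgeR adjusted p = 0.0225); the call was lost without WT sham 7, WT sham 15, caPI3Kalpha TAC 9 or caPI3Kalpha TAC 11 (0.71 to 1.18 over the 16 fits). WT TAC hearts had 132 to 262 CPM, and the difference from them was -0.58 ± 0.24 (edgeR adjusted p = 0.131). With the set term this difference passed (-0.61, edgeR adjusted p = 0.0168). miR-34a, of the same family on another chromosome, was at 17.8, 13.5, 17.2 and 22.2 CPM in WT sham and 18.1, 21.1, 25.1 and 26.5 in caPI3Kalpha TAC (0.36 ± 0.19, edgeR adjusted p = 0.218). The 2 arms of miR-34b were scarce: miR-34b-3p had 5, 2, 0 and 2 reads in the WT sham libraries and 14, 7, 17 and 2 in the caPI3Kalpha TAC libraries (edgeR adjusted p = 0.0826; with the set term 0.0434), and miR-34b-5p a change of 0.66 ± 0.33 (edgeR adjusted p = 0.187). miR-449a, a relative of the family, was too scarce to test, with 4 reads over the 4 WT sham libraries, 43 over the 4 caPI3Kalpha TAC libraries and 29 over the 5 WT TAC libraries.

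In the imprinted cluster on chromosome 12, which is expressed from the maternal copy beside the non-coding RNA Meg3, 3 of 26 tested miRNAs rose, beside 5.34% of all tested miRNAs, none fell, and the median was 0.36. With the set term 7 were higher, beside 14.5% of all, and none lower. The summed level of its 52 listed entries was 1620.2 to 1774 CPM in WT sham and 2395 to 3425 in caPI3Kalpha TAC, and these ranges did not overlap. miR-127, the most abundant called member, was at 1213, 1084, 1166 and 1238 CPM in WT sham and 1738, 2615, 1859 and 1807 in caPI3Kalpha TAC. Hearts 8, 11 and 211 were close together and heart 9 stood above them. The change was 0.77 ± 0.15 (edgeR adjusted p = 0.00496), 1.00 in the set with a space and 0.72 in the set without. miR-411 (149, 155, 138 and 116 CPM in WT sham, 191, 255, 237 and 232 in caPI3Kalpha TAC) changed by 0.71 ± 0.20 (edgeR adjusted p = 0.0255). miR-379, at the head of the same run of hairpins, changed by 0.56 ± 0.16 (adjusted p = 0.032) from 11.4, 10.8, 11.5 and 14.1 to 19.6, 19.9, 14.6 and 16.2 CPM. These 2 calls were less firm: that of miR-411 was lost without 13 of the 16 libraries in turn (log2 change 0.61 to 0.80) and that of miR-379 without 12 (0.46 to 0.63).

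Other members of that cluster overlapped with unloaded WT hearts and were lower than in loaded WT hearts. miR-410 was at 34.1, 28.5, 32.1 and 43.8 CPM in WT sham, 38.0, 50.8, 46.5 and 44.8 in caPI3Kalpha TAC and 69.7 to 104 in WT TAC, with a difference from WT TAC of -0.86 ± 0.16 (edgeR adjusted p = 0.00393). miR-300 was at 36.9, 39.8, 33.1 and 35.2 CPM in WT sham and 35.1, 41.0, 41.4 and 28.6 in caPI3Kalpha TAC against 56.9 to 97.9 in WT TAC (-0.95 ± 0.18, edgeR adjusted p = 0.0047). miR-341 and miR-409-3p had log2 differences from WT TAC of -1.31 ± 0.25 and -0.99 ± 0.20 (edgeR adjusted p = 0.00437 and 0.00802), with changes from WT sham of 0.02 ± 0.27 and 0.13 ± 0.22 that did not pass. Over the 26 tested members, 0 were higher and 10 were lower than in WT TAC in edgeR, beside 8.78% of all tested miRNAs that were lower, with a median of -0.75. The summed level in WT TAC was 3172 to 4019 CPM, which overlapped with caPI3Kalpha TAC and not with WT sham. Meg3 RNA, the marker of the maternal copy, was listed at 3.7, 1.6, 3.1 and 2.1 RPKM in WT sham hearts 6, 7, 13 and 15 and at 2.7 and 3.9 in caPI3Kalpha TAC hearts 11 and 211. In WT TAC hearts 1, 17 and 19 it was listed higher, at 11.4, 6.5 and 4.6 RPKM.

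The miR-17 to miR-92 cluster and its copies promote proliferation and are direct targets of Myc. Among 10 tested members 2 fell, beside 6.49% of all tested miRNAs, none rose, and the median was 0.01. With the set term 3 were lower, beside 20.6% of all. miR-20a was at 74.9, 75.2, 80.1 and 87.9 CPM in WT sham and 47.8, 49.0, 47.3 and 43.9 in caPI3Kalpha TAC. The 4 loaded caPI3Kalpha hearts were nearly equal and lay below every heart of the other 3 groups, since WT TAC hearts were at 64.4 to 73.8 CPM and caPI3Kalpha sham hearts at 65.0, 69.0 and 90.8. The change was -0.76 ± 0.13 (edgeR adjusted p = 0.00251), -0.66 and -0.67 within the 2 sets. The difference from WT TAC was -0.56 ± 0.12 (edgeR adjusted p = 0.00959). miR-19b, of another seed in this cluster, was at 113, 127, 137 and 118 CPM in WT sham and 95.5, 81.3, 76.1 and 76.9 in caPI3Kalpha TAC. It changed by -0.58 ± 0.12 (edgeR adjusted p = 0.00923), a call that was lost without WT sham 6, WT sham 7 or caPI3Kalpha TAC 9 (-0.69 to -0.54 over the 16 fits), and its log2 difference from WT TAC was -0.44 ± 0.12 (edgeR adjusted p = 0.0264). miR-19a, 1 base different and scarcer, had a similar value without passing (-0.57 ± 0.21, edgeR adjusted p = 0.0826; with the set term 0.0362). The seed-mates of miR-20a did not follow it as calls, with log2 changes of -0.19 for miR-17, 0.25 for miR-93 and 0.20 for miR-106b.

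The miR-15 family is known to arrest the cell cycle of heart muscle cells after birth. Of its 6 tested members 1 rose, beside 5.34% of all tested miRNAs, none fell, and the median was 0.47. With the set term 4 were higher, beside 14.5% of all. miR-15b was at 44.8, 45.6, 60.8 and 44.9 CPM in WT sham and 76.4, 88.1, 71.6 and 56.8 in caPI3Kalpha TAC, where heart 211 lay below WT sham 13. The change of 0.58 ± 0.18 (edgeR adjusted p = 0.0439) was lost without 11 of the 16 libraries in turn (0.51 to 0.68). miR-195 (533, 531, 370.2 and 468 CPM in WT sham and 478, 595, 757 and 1004 in caPI3Kalpha TAC; 0.57 ± 0.22) and miR-497 from the same transcript (96.1, 105, 159 and 149 CPM in WT sham and 159.9, 169, 211 and 252 in caPI3Kalpha TAC; 0.64 ± 0.21) did not pass (edgeR adjusted p = 0.0969 and 0.062). Both passed with the set term (0.00612 and 0.0152). miR-497 was the 1 miRNA of 262 whose difference itself differed between the library sets, at 0.23 in the set with a space and 1.24 in the set without (interaction in edgeR, adjusted p = 0.0391).

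The miR-30 family is very abundant in heart muscle and known to restrain connective tissue growth factor. It had 3 of 5 members lower, beside 6.49% of all tested miRNAs, none higher, and a median of -0.43. With the set term 4 were lower, beside 20.6% of all. miR-30b was at 2528, 2811, 2446 and 2759 CPM in WT sham and 1578, 1265, 1762 and 2016 in caPI3Kalpha TAC without overlap (-0.67 ± 0.15, edgeR adjusted p = 0.0108), a call lost without WT sham 6, WT sham 7 or caPI3Kalpha TAC 9 (-0.81 to -0.54). miR-30e, within Nfyc, was at 41629, 43798, 30326 and 35694 CPM in WT sham and 24961, 20508, 29499.8 and 27333 in caPI3Kalpha TAC (-0.57 ± 0.17, edgeR adjusted p = 0.0361). miR-30c, of the same gene and a second locus, was at 8138, 8439.8, 6787 and 8102 CPM in WT sham and 5795, 4671, 6368 and 6588 in caPI3Kalpha TAC (-0.43 ± 0.13, edgeR adjusted p = 0.0439). Both of these sat at the edge of the threshold, since each was lost without 14 of the 16 libraries in turn and neither passed in DESeq2 (adjusted p = 0.0508 for both). miR-30d was at 28259.7, 28916, 26393 and 27852 CPM in WT sham and 21312, 19319.8, 23184 and 22361 in caPI3Kalpha TAC (-0.37 ± 0.13, edgeR adjusted p = 0.0703; with the set term 0.00906). miR-30a differed by -0.04 ± 0.12 only, at 60921, 55712, 53556 and 60572 CPM in WT sham and 49242, 52331, 55495 and 68046 in caPI3Kalpha TAC, although its sequence differs from miR-30e at 1 position. All 5 members had negative log2 changes as reported, and that of miR-30a changed sign on library totals without TMM (0.10).

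The 3 miR-29 miRNAs, which repress collagen genes, gave 0 calls in edgeR, 0 in DESeq2 and 0 unadjusted p under 0.05 in edgeR without the set term. miR-29a was at 3719, 3969.8, 2195 and 3372 CPM in WT sham and 2279, 2082, 3302 and 3198 in caPI3Kalpha TAC (-0.29 ± 0.21). miR-29b was at 209, 252, 137 and 159 in WT sham and 95.7, 84.1, 168 and 165 in caPI3Kalpha TAC (-0.56 ± 0.28), and it passed with the set term (adjusted p = 0.00408). miR-29c was at 1018, 1142, 595 and 839.7 in WT sham and 605, 511, 981 and 929 in caPI3Kalpha TAC (-0.25 ± 0.26). In each, hearts 8 and 9 were the lowest of the loaded hearts, and hearts 11 and 211 lay within the WT sham range.

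Among the miR-101, miR-103, miR-107 and miR-218 miRNAs, 2 of 5 fell, beside 6.49% of all tested miRNAs, none rose, and the median was -0.52. With the set term 4 were lower, beside 20.6% of all. Like the other lists, this one was chosen with earlier results of these data known, so its falls are no independent result. miR-107, encoded in the pantothenate kinase gene Pank1 and linked to insulin sensitivity, was at 249, 270.3, 243 and 207 CPM in WT sham and 152, 129, 176 and 148 in caPI3Kalpha TAC. All loaded caPI3Kalpha hearts were lower (-0.68 ± 0.16, edgeR adjusted p = 0.0128), and the call was lost without WT sham 6, WT sham 7 or caPI3Kalpha TAC 9 (-0.81 to -0.58). miR-103, 1 base different, had a log2 change of -0.31 (edgeR adjusted p = 0.187). miR-101a was at 10857, 9974, 8006 and 8439 CPM in WT sham and 5936, 5179.9, 6804 and 7491 in caPI3Kalpha TAC (-0.55 ± 0.17, edgeR adjusted p = 0.0426). The call was lost without 13 of the 16 libraries in turn and did not pass in DESeq2 (adjusted p = 0.0683). miR-101b had a log2 change of -0.38 ± 0.15 (edgeR adjusted p = 0.096; with the set term 0.00628).

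miRNAs of the vessel wall and of other cell types gave few calls. miR-145, of smooth muscle, was at 647, 696, 781 and 843 CPM in WT sham and 475, 450.4, 490.0 and 531 in caPI3Kalpha TAC, without overlap (-0.61 ± 0.15, edgeR adjusted p = 0.0147; lost without WT sham 6, WT sham 7 or caPI3Kalpha TAC 9, -0.68 to -0.55). Its cluster partner miR-143 overlapped, with 139080.0 to 224910.0 and 122379 to 187050.0 CPM (-0.19 ± 0.23, edgeR adjusted p = 0.614). miR-126-3p, of endothelium, was at 8902, 8925, 7439.6 and 7360.1 CPM in WT sham and 5757, 5416, 6803 and 6133 in caPI3Kalpha TAC with no overlap, and did not pass (-0.44 ± 0.15, edgeR adjusted p = 0.0652; with the set term 0.00101). The other arm of the hairpin, miR-126-5p, had a positive value of 0.37 ± 0.27 (edgeR adjusted p = 0.371). Egfl7, the host gene of this hairpin, was listed at 24.7 to 32.6 RPKM in the 4 WT sham hearts and at 37.7 and 27.6 in caPI3Kalpha TAC hearts 11 and 211. Summed endothelial markers ran over 37552 to 58704 CPM in WT sham and 46181 to 78006 in caPI3Kalpha TAC. Summed smooth muscle markers ran over 139776 to 225752 and 122869 to 187500.0. The ranges of the 2 groups overlapped for both.

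miR-9, best known from neural tissue and also found in muscle, showed the largest fall of any miRNA that passed in all 16 fits with 1 library left out. It was at 45.1, 38.0, 51.7 and 55.5 CPM in WT sham and 18.2, 21.7, 11.98 and 13.8 in caPI3Kalpha TAC, from 253, 172, 153 and 200 and 154, 109, 77 and 63 reads. The lowest WT sham heart lay well above the highest loaded caPI3Kalpha heart. The change was -1.53 ± 0.26 (edgeR adjusted p = 0.00251), -1.29 in the set with a space and -1.65 in the set without. WT TAC hearts were at 22.7 to 39.6 CPM, caPI3Kalpha sham hearts at 38.4, 53.1 and 78.4, and the difference from WT TAC was -0.89 ± 0.24 (edgeR adjusted p = 0.0276). The other neural markers did not pass: miR-128 was at -0.19 ± 0.18 and miR-138 at 0.17 ± 0.29, and miR-137 had 0 reads in both groups. The summed neural list ran over 141 to 191 CPM in WT sham and 90.9 to 148 in caPI3Kalpha TAC.

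Without the set term, lists with 0 calls in edgeR and 0 in DESeq2 were let-7 (9 tested, 0 with an unadjusted p under 0.05, median -0.23), the miR-10, miR-99/100 and miR-125 group (8 tested, 2 unadjusted, median -0.31), miR-181 (4 tested, 1 unadjusted, median -0.18), epithelial markers (2 tested, 1 unadjusted, median 0.33) and liver and gut markers (3 tested, 0 unadjusted, median -0.12). With the set term in edgeR, 4 let-7 members, 2 of the miR-10 group, 1 miR-181 member and 1 liver and gut marker were lower. In that fit 1 epithelial marker was higher. Over all tested miRNAs 20.6% were lower and 14.5% higher in it. miR-10a, encoded within the Hox clusters, was at 15868, 16705, 26274 and 47678 CPM in WT sham and 11162, 15949.5, 7585 and 18191 in caPI3Kalpha TAC (-1.01 ± 0.36, edgeR adjusted p = 0.0792; with the set term 0.0445). let-7g, let-7d and let-7a, which repress Ras and Myc, had -0.41 ± 0.28, -0.43 ± 0.46 and -0.31 ± 0.28, and these 3 passed with the set term (adjusted p = 0.0134, 0.00619 and 0.015). miR-125a-5p and miR-125b-5p, relatives of the worm lin-4 miRNA, had -0.48 ± 0.19 and -0.46 ± 0.31 (edgeR adjusted p = 0.096 and 0.333; with the set term 0.0282 and 0.0833). The miR-181 members b, c and d had -0.23 ± 0.24, -0.28 ± 0.12 and 0.21 ± 0.17 (adjusted p = 0.549, 0.114 and 0.433; with the set term miR-181c passed at 0.0156). Of the epithelial markers, miR-141 was at 16.4, 11.5, 7.78 and 11.6 CPM in WT sham and 18.2, 22.1, 20.4 and 19.5 in caPI3Kalpha TAC (0.74 ± 0.29, edgeR adjusted p = 0.096; with the set term 0.0453), and miR-203 at -0.09 ± 0.13. miR-215 and miR-194, of gut and liver, had -0.51 ± 0.25 and 0.04 ± 0.16 (edgeR adjusted p = 0.176 and 0.879; with the set term 0.0134 and 0.811). miR-192 was at 2919, 3016, 2673 and 2884 CPM in WT sham and 2538, 2591, 2652 and 2759 in caPI3Kalpha TAC, with 1681 to 2097 in WT TAC, so that loaded caPI3Kalpha hearts exceeded loaded WT hearts by 0.47 ± 0.10 (edgeR adjusted p = 0.00959) and not unloaded ones (-0.12 ± 0.11).

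**Figure D3:**
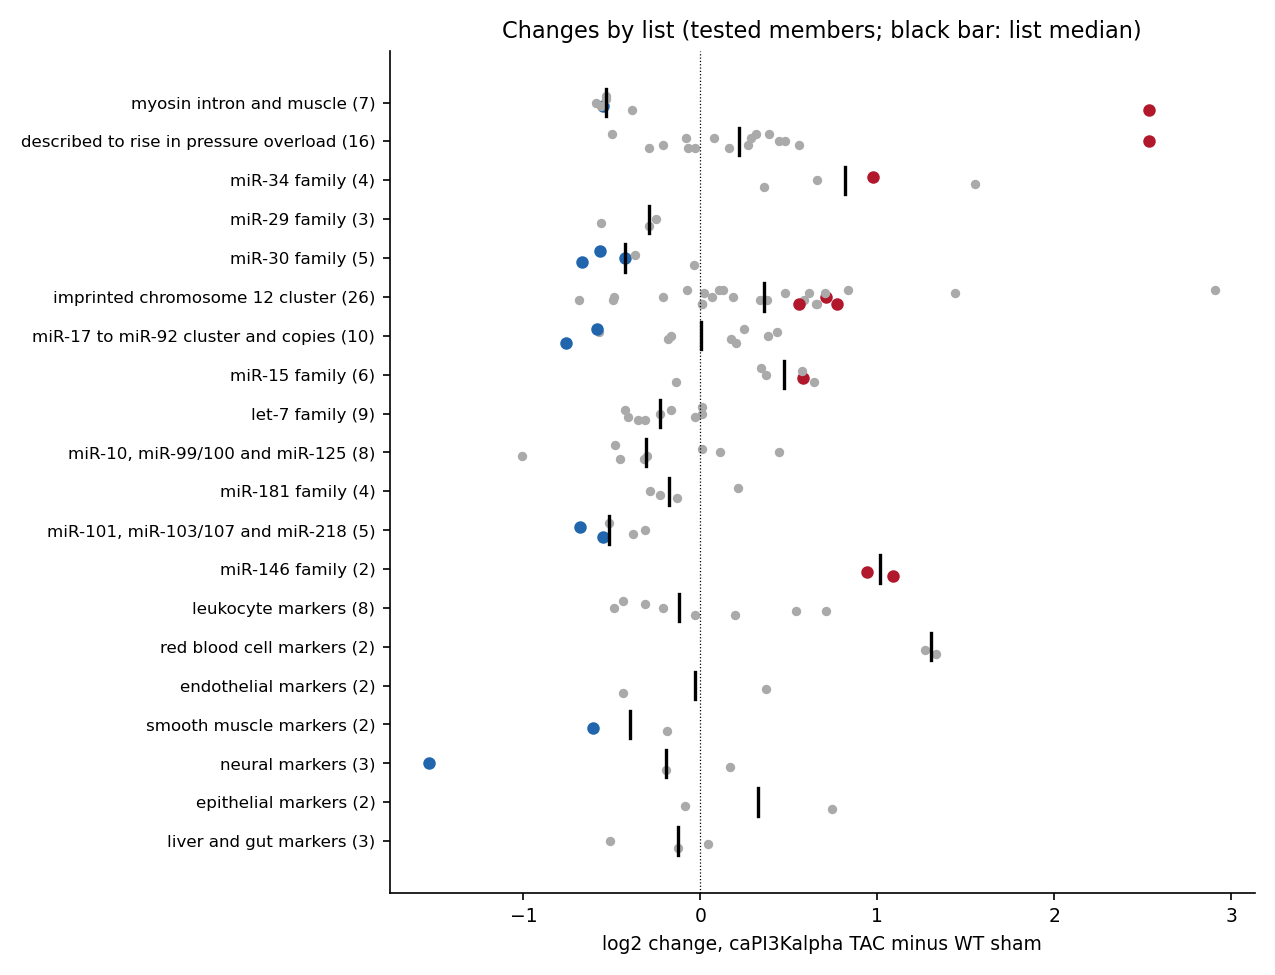
Log2 change (caPI3Kalpha TAC minus WT sham) of each tested member of 20 miRNA lists, with red and blue for members past an adjusted p of 0.05 in edgeR and grey for the rest; the black bar is the list median and the number in brackets the members tested. The lists were chosen with earlier results of these data known. Both miR-146 miRNAs and 3 of 26 chromosome 12 miRNAs rose, and 3 of 5 miR-30 miRNAs fell. Over all tested miRNAs 5.34% rose and 6.49% fell.

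Several called miRNAs belong to none of these groups. miR-140, known from cartilage and found in fibroblasts, was at 46.6, 43.6, 39.2 and 54.6 CPM in WT sham and 68.6, 87.9, 73.9 and 87.2 in caPI3Kalpha TAC (0.79 ± 0.17, edgeR adjusted p = 0.00939; lost only without caPI3Kalpha TAC 11, adjusted p = 0.0527). miR-184 rose from 9.28, 9.51, 11.8 and 5.55 to 17.6, 18.5, 23.8 and 18.1 CPM (1.11 ± 0.28, edgeR adjusted p = 0.0195). miR-187 fell from 8.03, 9.07, 9.47 and 6.66 to 3.90, 4.58, 4.98 and 3.72 CPM (-0.94 ± 0.22, edgeR adjusted p = 0.0137). The groups did not overlap for these 3 miRNAs. The call was lost for miR-184 without WT sham 6, 7 or 15 or caPI3Kalpha TAC 9 or 11 (0.93 to 1.23) and for miR-187 without WT sham 6, WT sham 7 or caPI3Kalpha TAC 9 (-1.07 to -0.86). Both arms of miR-338, which lies within the kinase gene Aatk, fell: miR-338-3p from 69.4, 69.9, 48.7 and 89.6 to 38.9, 38.5, 43.7 and 42.2 CPM (-0.77 ± 0.21, edgeR adjusted p = 0.0279) and the scarce miR-338-5p from 18, 13, 10 and 12 to 14, 10, 9 and 5 reads (-1.03 ± 0.27, adjusted p = 0.0225). miR-338-3p was lost without 7 of the 16 libraries in turn (-0.92 to -0.64), and miR-338-5p without WT sham 6, WT sham 7, caPI3Kalpha TAC 9 or caPI3Kalpha TAC 11 (-1.13 to -0.95) and in DESeq2 (adjusted p = 0.1). The remaining calls, like the seed-mates named above, fell outside the rule for named miRNAs except for miR-130b, and were added after their values were seen: these were miR-130b (0.80 ± 0.24) and miR-191 (0.66 ± 0.19), which rose, and miR-185 (-0.58 ± 0.15) and miR-582-5p (-0.69 ± 0.19), which fell. In edgeR their adjusted p were 0.037, 0.0361, 0.0195 and 0.0238, and each was lost in 6 to 14 of the 16 fits that left out 1 library. The seed-mates of miR-130b did not pass, with -0.27 for miR-130a (adjusted p = 0.0282 with the set term) and -0.00358 for miR-301a.

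Another 4 called entries are of little-studied or disputed miRNAs. miR-1959 fell from 134, 163, 205 and 149 CPM in WT sham to 43.5, 39.9, 21.3 and 34.3 in caPI3Kalpha TAC, or 754, 738, 607 and 539 to 368, 200, 137 and 157 reads (-2.23 ± 0.61, edgeR adjusted p = 0.0247), and WT TAC hearts ranged from 28.1 to 322 CPM. miR-720, now regarded as a piece of a transfer RNA, fell from 43.0, 54.0, 70.7 and 53.8 to 23.1, 22.5, 27.5 and 19.2 CPM (-1.26 ± 0.33, edgeR adjusted p = 0.0225). miR-1983 rose from 31, 22, 14 and 30 to 125, 59, 108 and 120 reads (1.56 ± 0.42, edgeR adjusted p = 0.0225). miR-3096-5p rose from 4, 5, 2 and 5 to 29, 11, 20 and 13 reads (1.58 ± 0.42, edgeR adjusted p = 0.0225). The groups did not overlap in CPM for these 4 entries. Leaving out WT sham 6 or WT sham 7 ended each of these calls, as did caPI3Kalpha TAC 9 for miR-720 and miR-1959, caPI3Kalpha TAC 11 for miR-1959, miR-1983 and miR-3096-5p, caPI3Kalpha TAC 211 for miR-1983 and caPI3Kalpha TAC 8 for miR-3096-5p, with log2 changes of -2.38 to -2.08 for miR-1959, -1.38 to -1.14 for miR-720, 1.27 to 1.75 for miR-1983 and 1.43 to 1.75 for miR-3096-5p over the 16 fits.

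The distance of each heart from the WT sham mean, taken as the root mean square log2 CPM difference over the 262 tested miRNAs, gave 1 value for how far a heart departs from normal. It was 0.627, 0.728, 0.749 and 0.841 in caPI3Kalpha TAC hearts 8, 9, 11 and 211, a mean of 0.736 ± 0.088 (SD, n = 4). WT sham hearts, each set against the mean of the other 3, were at 0.564 ± 0.090 (SD, n = 4), caPI3Kalpha sham hearts at 0.524 ± 0.040 (n = 3) and WT TAC hearts at 0.753 ± 0.061 (n = 5). WT sham 13, at 0.689, was farther from its group than caPI3Kalpha TAC 8 was from WT sham. caPI3Kalpha TAC and WT TAC hearts differed by -0.0166, which was not larger than the spread between hearts (exact permutation test, two-sided, p = 0.762; the smallest p that the 126 arrangements allow is 0.0159). The difference turned positive without WT TAC 1 (0.0116) or caPI3Kalpha TAC 8 (0.0399).

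**Figure D4:**
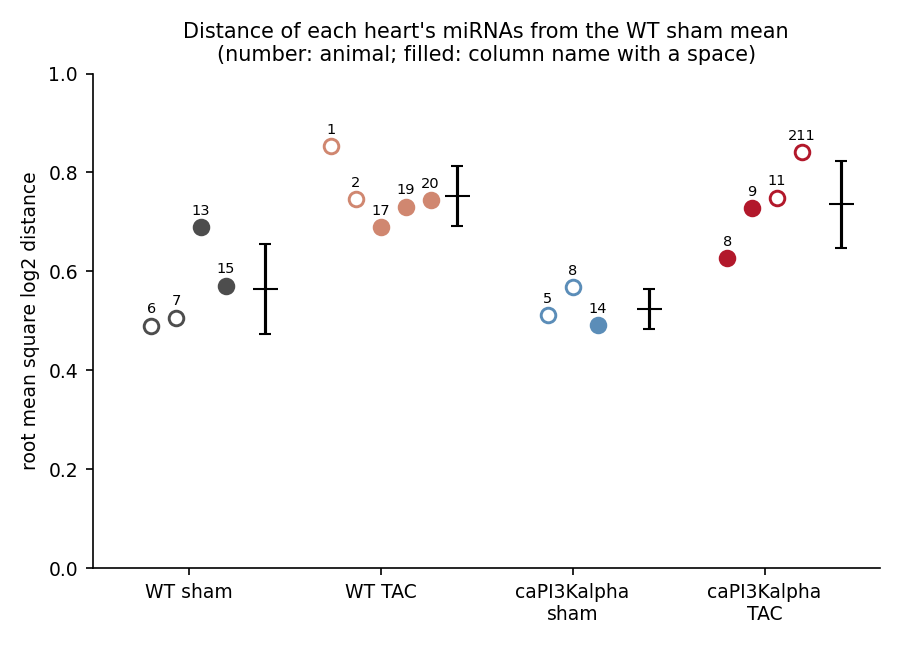
Root mean square log2 distance of each heart's 262 tested miRNAs from the mean of the WT sham hearts (vertical axis) by group, with the mean ± SD of each group beside its points; numbers are animals, filled points have a space in their column name and open points do not. caPI3Kalpha TAC hearts lie between 0.627 and 0.841, over much the same range as WT TAC hearts.

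The permutation test of distance does not show that the 2 loaded groups lay equally far from WT sham. WT TAC against WT sham called 53 of 262 miRNAs in the same fit, 34 higher and 19 lower. Of these, 25 rose and 0 fell 2-fold or more. caPI3Kalpha TAC against WT sham called 31, with 5 that rose and 4 that fell 2-fold or more. The WT TAC group holds 5 hearts and the caPI3Kalpha TAC group 4, and both counts share the WT sham libraries. Single miRNAs also differed between the 2 loaded groups. The direct comparison of caPI3Kalpha TAC with WT TAC in the same fit called 34 miRNAs (13.0%), 11 higher and 23 lower, and 64 with the set term. This count rested on single hearts too: it was 15 to 22 without WT TAC 1, 2, 17 or 20 or without any 1 of the 4 caPI3Kalpha TAC hearts. Among the miRNAs with the smallest p were miR-21, miR-410, miR-146b, miR-341, miR-300 and miR-409-3p, all lower in caPI3Kalpha TAC. Of the 31 that differed from unloaded WT, miR-146a was higher than in WT TAC, and miR-9, miR-20a and miR-19b were lower, so that in these 4 the loaded caPI3Kalpha heart stood farther from WT sham than the loaded WT heart did. miR-146b was lower than in WT TAC and stood between the 2 WT groups. miR-208b, miR-133a and the called miR-30 members did not differ from WT TAC beyond the threshold, which does not show that they were equal. With the set term miR-208b was higher than in WT TAC (0.72, edgeR adjusted p = 0.0367). In that fit miR-130b (-0.68), miR-34c (-0.61), miR-411 (-0.52) and miR-379 (-0.41) were lower than in WT TAC. Their edgeR adjusted p were 0.0139, 0.0168, 0.0187 and 0.0255, and all of them were higher than in WT sham.

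The comparison of caPI3Kalpha TAC with caPI3Kalpha sham, which changes load alone within the transgenic line, called 28 miRNAs (10.7%), 12 higher and 16 lower, and fewer in each fit that left out 1 library: 6 without caPI3Kalpha TAC 9, 10 without caPI3Kalpha TAC 11, 11 without caPI3Kalpha sham 5, and 16 to 18 without WT sham 6, WT TAC 2, 17 or 20, caPI3Kalpha sham 8 or caPI3Kalpha TAC 8. Fitted on these 2 groups alone, edgeR called 0 of 256, although 55 had an unadjusted p under 0.05, and DESeq2 on all libraries called 31. miR-208b was higher by 2.40 ± 0.45 (edgeR adjusted p = 0.00664), miR-184 by 1.72 ± 0.32 (0.00664), miR-146a by 1.05 ± 0.22 (0.00876) and miR-127 by 0.81 ± 0.17 (0.00876). miR-9 and miR-20a were lower, with log2 differences of -1.78 ± 0.27 and -0.67 ± 0.14 (edgeR adjusted p = 0.00161 and 0.00876). For the same miRNAs the values of caPI3Kalpha sham minus WT sham, which share the WT sham libraries with the main comparison, were 0.13 ± 0.42 for miR-208b, -0.61 ± 0.32 for miR-184, 0.04 ± 0.21 for miR-146a, -0.04 ± 0.16 for miR-127, 0.25 ± 0.27 for miR-9 and -0.09 ± 0.14 for miR-20a. None of these 6 values lay more than 2 standard errors from 0.

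**Figure D5:**
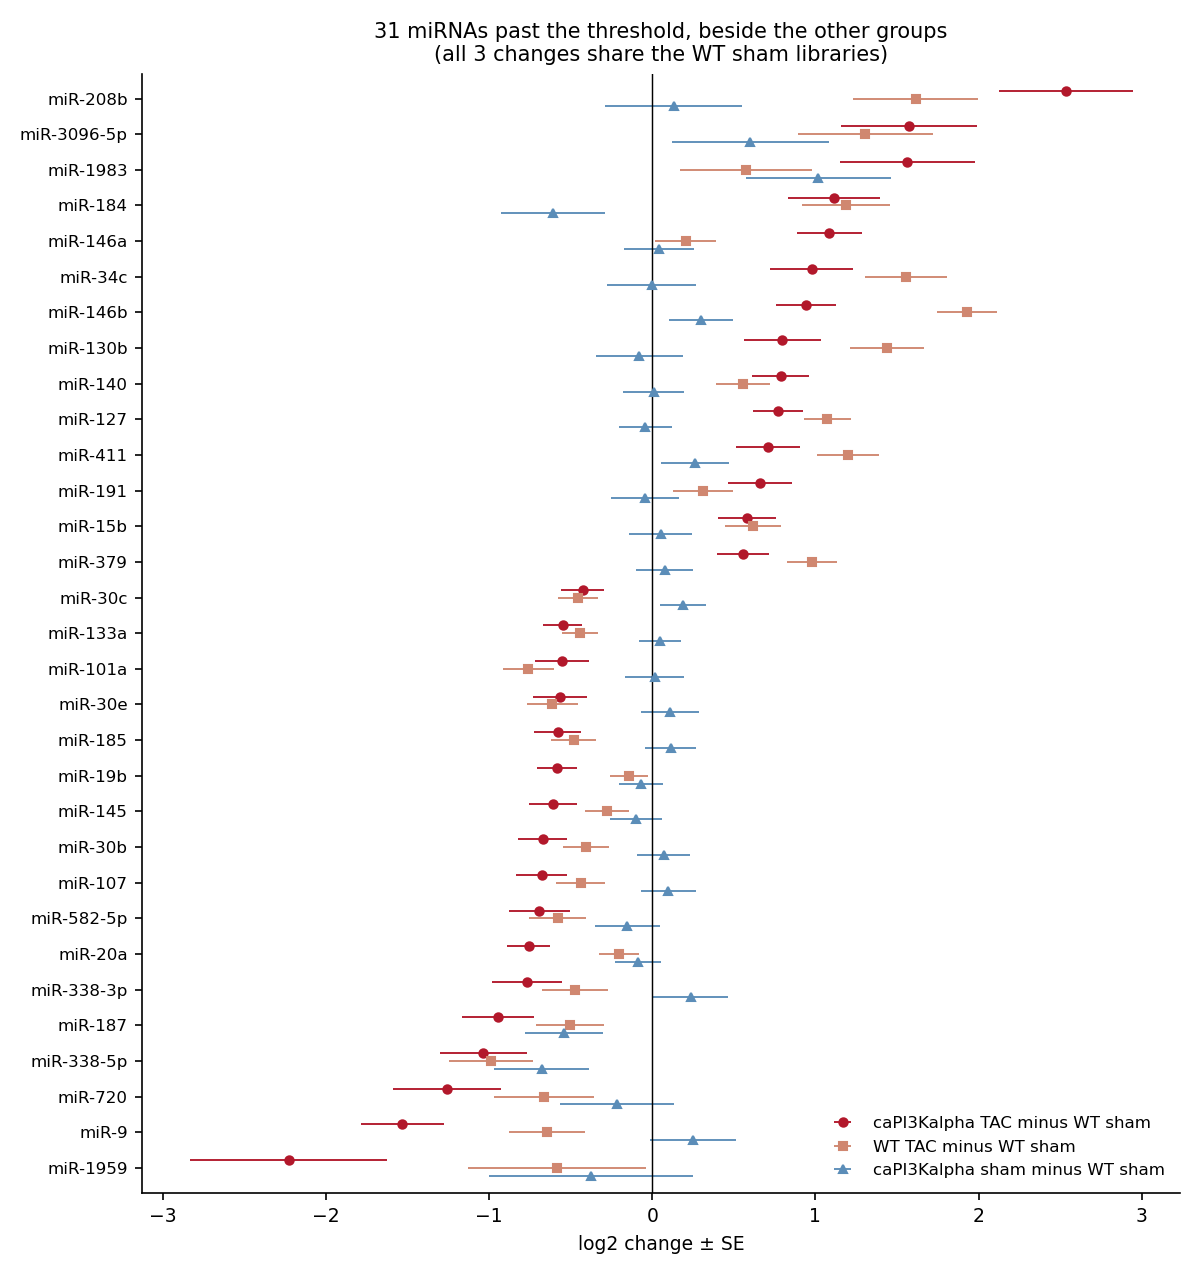
Log2 change ± SE (horizontal axis) of the 31 called miRNAs in caPI3Kalpha TAC (circles), WT TAC (squares) and caPI3Kalpha sham (triangles), each minus WT sham. The 3 changes share the WT sham libraries, so their likeness is no independent result. By the direct test without the set term, the caPI3Kalpha TAC values of miR-146a, miR-20a, miR-19b and miR-9 lie farther out than the WT TAC values. With the set term that of miR-208b does too. In that fit those of miR-146b, miR-130b, miR-34c, miR-411 and miR-379 lie below the WT TAC values.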

How the data were processed

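Small RNA of mouse left ventricle was sequenced in 16 libraries (TruSeq small RNA kit, single-end reads on a HiSeq 2000, several libraries pooled per lane, per the labels' protocols). The deposited miRNA table holds raw counts, named as in miRBase 16; the submitters' processing notes name CASAVA 1.6, Bowtie, Partek 6.5 and mm9 without roles, and the counting rule is not given in the sources used here. The authors' deposited mRNA table gives RPKM and was used for 6 described genes only, with no test.

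The members and miRNA lists were chosen with earlier results of these data known. miRNAs that passed filterByExpr (minimum count 10; 262 of 421) were tested in R 4.3.3 with edgeR 4.0.16: TMM scaling, quasi-likelihood fit of 4 groups over 16 libraries, Benjamini-Hochberg adjustment. log2 CPM for distances used a prior count of 2. Alternatives were no TMM, no filter, the 2 groups alone, a library set term, fits within each set, DESeq2 1.42.0 and each library left out; leaving libraries out with the set term was added after seeing the data. On simulated counts with 40 changed miRNAs, the main comparison recovered 12 of 20 at 2-fold and 19 of 20 at 4-fold. Named miRNAs were called miRNAs without overlap between the groups (up to 10 a direction), a fixed set of cardiac and blood miRNAs, up to 3 of each list by p, and up to 6 by p in the comparisons with WT TAC and caPI3Kalpha sham. No 2 libraries of a group agreed within sampling noise (lowest chi-square per degree of freedom 46.9).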

Additional observations from a re-analysis of the deposited data

Results flagged for a closer look

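In 6 of 152 groups of 4 hearts examined, 1 heart stood so far from the other 3 that it passed Dixon's 95% criterion, which chance passes in about 1 group in 20. In caPI3Kalpha TAC, heart 11 had 23.8 CPM of miR-184 (others 17.6 to 18.5) and 7.32 CPM of miR-34b-5p (others 3.79 to 4.37), and heart 9 had 2615 CPM of miR-127 (others 1738 to 1859). In WT sham, heart 13 had 45.6 CPM of miR-142-3p (others 29.2 to 31.4), 60.8 CPM of miR-15b (others 44.8 to 45.6) and 9.80 CPM of miR-341 (others 5.27 to 5.89). The difference of miR-497 between the groups was smaller in the set with a space than in the set without by -1.11 on the log2 scale, the 1 interaction of 262 that passed in edgeR (adjusted p = 0.0391), with 16 at an unadjusted p under 0.05.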

How the results depend on the processing

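None of the 31 called miRNAs changed direction under any alternative run. Of the 31, 24 stayed called without TMM, 22 without the low-count filter, 31 with the set term and 27 in DESeq2. Against WT sham, the count of called miRNAs was 92 with the set term, 20 within the set with a space, 36 within the set without and 17 with the 2 groups alone (15 of the 31 called), and 7 to 34 with 1 library left out. With the set term and 1 library left out it was 48 to 99. Against WT TAC, 64 passed with the set term, 13 within the set with a space, 40 within the set without and 43 in DESeq2, and 15 to 38 with 1 library left out. Against caPI3Kalpha sham, 68 passed with the set term, 18 within the set with a space, 18 within the set without, 0 with the 2 groups alone (edgeR; 55 of 256 at an unadjusted p under 0.05, and 31 called by DESeq2 on all libraries), and 6 to 24 with 1 library left out. The cause of these shifts was not tested. The difference in distance from WT sham between the 2 loaded groups ran from -0.0476 to 0.0399 with 1 library left out.

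Some uncalled values near 0 changed sign. Without TMM, miR-142-3p was at 0.13, miR-30a at 0.10, miR-203 at 0.0574 and miR-192 at 0.0192, and with the 2 groups alone at 0.12, 0.11, 0.0584 and 0.0247. Within the set without a space, miR-142-3p was at 0.15, miR-30a at 0.12 and miR-300 at -0.081; within the set with a space, miR-203 was at 0.21, miR-192 at 0.0244 and miR-341 at -0.0606. DESeq2 gave 0.0379 for miR-142-3p and 0.0182 for miR-30a. With 1 library left out, the log2 change ran over -0.183 to 0.126 for miR-142-3p, -0.175 to 0.0583 for miR-30a, -0.0192 to 0.321 for miR-138, -0.184 to 0.031 for miR-203, -0.0516 to 0.166 for miR-194, -0.0771 to 0.239 for miR-341 and -0.102 to 0.0998 for miR-300. List medians near 0 also changed sign without TMM, to 0.04 for leukocyte markers, 0.10 for endothelial markers and 0.02 for liver and gut markers. No paired analysis was possible because the compared groups share fewer than 2 animal numbers. Depth limits the scarce miRNAs: at a few reads a library, as for miR-3096-5p and miR-34b-3p, counting error alone is large.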

Other observations

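Several abundant miRNAs outside the lists above passed with the library set term and not without it; they were chosen after their values were seen. miR-378, which lies within the metabolic coactivator gene Ppargc1b, was at 51394, 47992, 86182 and 66767 CPM in WT sham hearts 6, 7, 13 and 15 and 52903, 45113, 30188 and 31026 in caPI3Kalpha TAC hearts 8, 9, 11 and 211. Its log2 change was -0.66 ± 0.24 (edgeR adjusted p = 0.0773) and -0.67 with the set term (adjusted p = 0.000834), with -0.51 in the set with a space and -0.66 in the set without. miR-149 was at 1087, 1085, 1784 and 1525 CPM in WT sham and 1284, 922, 826 and 687 in caPI3Kalpha TAC (-0.56 ± 0.24, edgeR adjusted p = 0.134; with the set term 0.00808). miR-204 was at 402, 422, 398 and 448 CPM in WT sham and 405, 608, 559.6 and 714 in caPI3Kalpha TAC (0.45 ± 0.16, edgeR adjusted p = 0.0703; with the set term 0.0187).

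The arms of 1 hairpin did not always share a sign. miR-142-5p had a log2 change of 0.71 ± 0.32 and miR-142-3p one of -0.03 ± 0.19, miR-126-5p one of 0.37 ± 0.27 and miR-126-3p one of -0.44 ± 0.15, and miR-151-5p one of -0.24 ± 0.13 and miR-151-3p one of 0.53 ± 0.41. None of these 6 passed in edgeR without the set term, 3 passed with it (miR-142-5p at an adjusted p of 0.0047, miR-126-3p at 0.00101 and miR-151-3p at 0.0156), and the difference between arms was not tested. Both arms of miR-208a had nearly the same value, -0.53 ± 0.27 for miR-208a-5p and -0.53 ± 0.18 for miR-208a-3p.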
